A study of Drosophila melanogaster with 18 samples.

Results

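Gene expression in the fat body of Zambian *Drosophila melanogaster* was compared between white prepupae and late wandering larvae of the last instar. The late stage falls within the large pulse of ecdysone that ends larval life, so its libraries do not stand for the time before the pulse. The comparison rests on 6 of the 18 RNA sequencing libraries of the series, 3 prepupal and 3 late, and on 12460 of the 16438 genes counted, those with a mean of at least 15 reads over all 18 libraries. In all, the series holds 3 stages (early wandering, late wandering and prepupal) of 2 populations, Zambian and Dutch, with 3 libraries for each combination.

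Prepupae of the Zambian population were taken at the formation of the white puparium, when they had stopped moving, and late larvae were picked by a gut already cleared of dyed food, early larvae having a dark blue gut. Both groups were female, were reared at the same density and temperature, and came from wild-derived isofemale strains with no transgene or drug. The Dutch prepupae and late larvae, compared here only to ask whether a change differed between populations, were collected in the same way. All 18 libraries entered the filter on low counts and the fit that gave the p-values of the Zambian comparison. Each Zambian library pooled fat bodies of 10 strains and each Dutch library those of 12. Since the libraries of a group pooled the same strains, their spread is that between pools and not between strains, and the p-values carry the same limit. In such bulk samples, fewer cells of a type and less RNA per cell cannot be told apart.

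The larval fat body stores fat, glycogen and protein, secretes most proteins of the hemolymph, detoxifies, and takes part in growth control and the immune response. Ecdysone is released by the ring gland, is converted to its active form in peripheral tissues including the fat body, and binds a heterodimer of EcR and Ultraspiracle that switches on early regulators, which in turn control later genes. At the onset of metamorphosis the fat body stops making storage proteins, takes them back up from the hemolymph, begins autophagy and loosens into single cells, which stay alive to feed the pupa.

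The 6 Zambian libraries held 17830666 to 32532383 counted read pairs in prepupae and 30714013 to 36029384 in late larvae. On the first principal component of all 18 libraries, which took 68.0% of the variance of the 500 most variable genes, the prepupal libraries lay at 44.7 to 46.2 and the late libraries at 12.4 to 23.3, with late replicate 2 the closest to the early libraries. Correlations of log2 CPM between libraries were 0.986 to 0.988 among prepupal and 0.981 to 0.986 among late libraries. Levels are in CPM, the counts per 1000000 reads after scaling each library with the trimmed mean of M-values (TMM). The 12 fat body markers together held 312865 to 356503 CPM in prepupal and 342513 to 443712 CPM in late libraries, so the labelled tissue was present throughout. The 11 female gonad markers, such as *vas* and *osk*, had 114 to 124 CPM in prepupal and 105 to 116 CPM in late libraries.

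A total of 1536 genes, 12.3% of those tested, differed between the stages at an adjusted p under 0.05 in the quasi-likelihood test of edgeR with the adjustment of Benjamini and Hochberg, which gave all adjusted p-values below unless another tool is named. Of these, 453 (3.64%) were higher and 1083 (8.69%) were lower in prepupae. The median log2 fold change was 0.89 among the higher and -0.76 among the lower calls, against -0.002 over all genes, and 170 of the higher and 345 of the lower genes changed at least 2-fold. All 3 prepupal libraries lay above all late libraries for 1560 genes (12.5%) and below them for 2234 genes (17.9%), and 1489 of the calls were among these.

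The split by direction rested on the scaling. With upper-quartile factors, and with TMM factors taken from genes with a mean of at least 1000 reads, log2 fold changes moved up by a median of 0.20 and 0.23, and the calls became 1034 higher (8.3%) and 746 lower (5.99%), or 1081 higher (8.68%) and 703 lower (5.64%). Of the original calls, 451 or 448 of the higher and 746 or 701 of the lower ones were kept. A log2 fold change between about -0.2 and 0 therefore took its sign from the scaling. The calls also depended on single libraries, being 794 without late replicate 2, 889 without prepupal replicate 2, 936 without prepupal replicate 3, and 2013 without late replicate 1. Fitted without the Dutch and early libraries, the 6 libraries gave 1639 calls. In total, 202 of the higher and 497 of the lower genes were called whichever of the 6 libraries was left out, and 202 and 480 of these were also called under both other scalings. A named gene counts as stable below if it was called in each of these omissions, and a value beside a gene with no unit is its log2 fold change, prepupal over late.

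**Figure D1:**
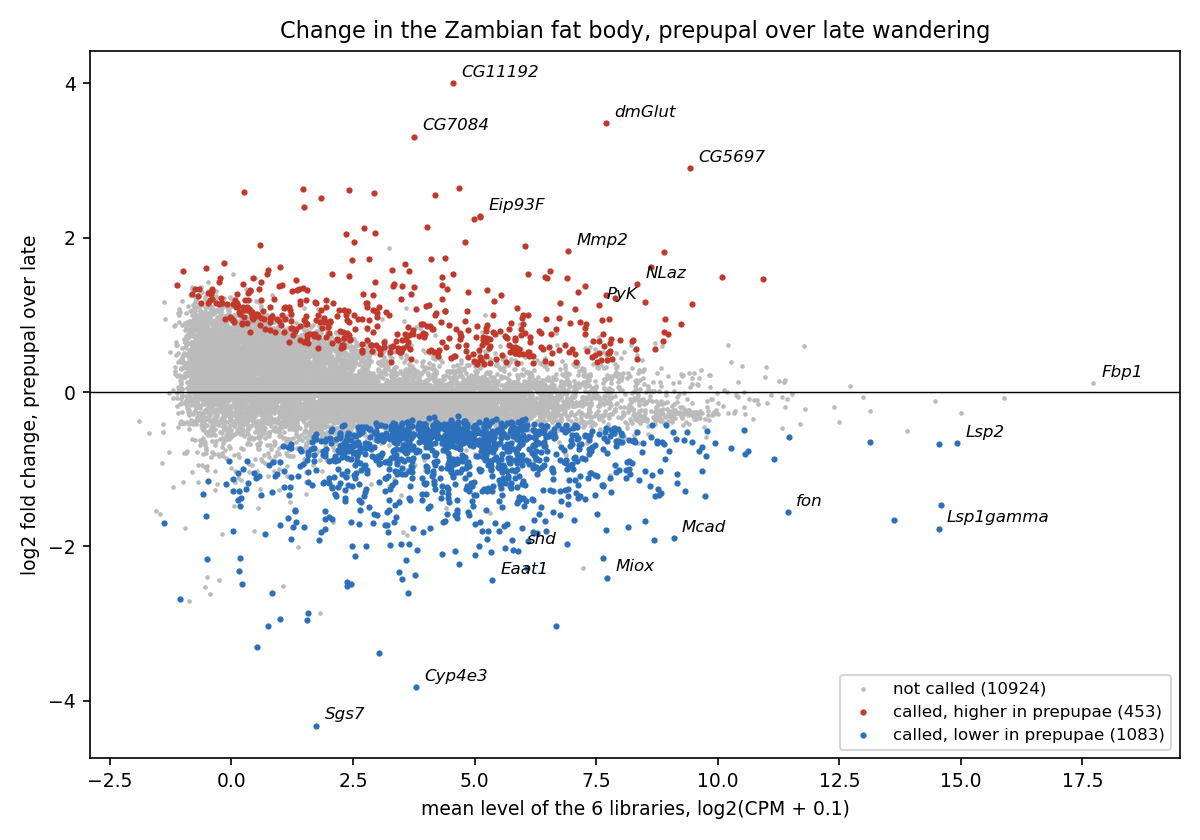
Each point is 1 of 12460 genes, with its mean level over the 6 Zambian libraries on the x axis, as log2(CPM + 0.1), and its log2 fold change, prepupal over late, on the y axis. The 453 genes called higher in prepupae (red) reach 4.01 for *CG11192*, the 1083 called lower (blue) reach -4.32 for *Sgs7*, and *Fbp1*, the gene with the highest level, is not called at 0.12.

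A large rise in a well-expressed gene was that of *dmGlut*, which encodes a membrane transporter of glutamate. It had 394, 394 and 356 CPM in prepupal libraries, against 31.98, 31.4 and 38.8 CPM in late libraries. These groups lay far apart, with an 11.2-fold difference (log2 fold change 3.48 ± 0.31, adjusted p = 6.54e-07). The gene lies on chromosome arm 2L, 12027438 to 12034122 (release 6 of the genome), and it is stable. *Eaat1*, which encodes a plasma membrane transporter for the uptake of glutamate, took the other direction. It had 13.6, 13.01 and 11.99 CPM in prepupal libraries, against 55.5, 95.99 and 57.1 CPM in late libraries, 5.41-fold lower in prepupae (log2 fold change -2.43 ± 0.22, adjusted p = 6.54e-07) with no overlap (chromosome arm 2L, 9333567 to 9341925).

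Several of the largest rises were in genes known only by a number. *CG11192* had 61.97, 35.8 and 33.8 CPM in prepupal libraries, against 3.20, 2.23 and 2.71 CPM in late libraries (log2 fold change 4.01 ± 0.36, adjusted p = 6.54e-07), the largest rise of a gene that averaged 1 CPM or more and had no overlap between the groups. *CG5697* (chromosome arm 3R, 21015949 to 21017120) had 1355, 1197 and 1107 CPM in prepupal libraries, against 208, 131 and 151 CPM in late libraries, a 7.47-fold difference (log2 fold change 2.90 ± 0.19, adjusted p = 1.64e-08). It was also 6.12 ± 0.23 higher on the log2 scale in late than in early Zambian larvae, a comparison that shares the late libraries. *CG7084* (chromosome arm 3R, 22298805 to 22304420) had 32.6, 20.2 and 19.9 CPM in prepupal libraries, against 3.40, 1.86 and 2.03 CPM in late libraries (log2 fold change 3.31 ± 0.24, adjusted p = 6.16e-08). *CG7924* had 50.7, 45.9 and 36.2 CPM in prepupal libraries, against 9.09, 6.69 and 5.48 CPM in late libraries (log2 fold change 2.64 ± 0.30, adjusted p = 7.75e-06). All of these genes were stable.

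Further rises included genes with known products. *Spn100A*, a member of the serpin family of protease inhibitors, had 9.76, 8.64 and 8.90 CPM in prepupal libraries, against 2.29, 0.669 and 1.40 CPM in late libraries (log2 fold change 2.62 ± 0.33, adjusted p = 1.74e-05). *FASN3*, which encodes a fatty acid synthase, had 44.8, 21.1 and 26.6 CPM in prepupal libraries, against 6.83, 3.68 and 5.25 CPM in late libraries (log2 fold change 2.55 ± 0.39, adjusted p = 1.72e-04). *Ilp8*, the relaxin-like peptide by which damaged imaginal discs delay metamorphosis, was near the detection limit with 86, 24 and 73 reads in prepupal libraries, against 12, 6 and 12 reads in late libraries, and had 2.58, 1.18 and 1.92 CPM in prepupal libraries, against 0.352, 0.223 and 0.358 CPM in late libraries (log2 fold change 2.59 ± 0.42, adjusted p = 2.87e-04). *CG2070*, *CG34244* and *CG12133* rose by log2 fold changes of 2.63, 2.57 and 2.51, all stable. *CG9452* completed the 12 largest rises at 2.39 ± 0.71 (adjusted p = 0.0296), but its call was lost without late replicates 2 or 3 or without prepupal replicates 2 or 3 (adjusted p = 0.131, 0.0672, 0.0901 and 0.0700).

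Among the 12 largest falls, 4 were genes of the salivary glue, the secretion that fixes the puparium to its substrate. *Sgs7* (chromosome arm 3L, 11509861 to 11510247) had 13, 11 and 3 reads in prepupal libraries, against 215, 206 and 154 reads in late libraries, which corresponds to 0.389, 0.540 and 0.0787 CPM in prepupal libraries, against 6.30, 7.66 and 4.59 CPM in late libraries. It was 20.01-fold lower in prepupae (log2 fold change -4.32 ± 0.63, adjusted p = 8.69e-05). *Sgs5bis*, *Sgs5* and *Sgs8* had log2 fold changes of -3.02, -2.94 and -2.60. These are products of the salivary gland and not of the fat body, and their levels were low in both stages. Over the 11 salivary gland markers tested, 6 were lower (54.5%, against 8.69% of all genes) and none higher (2 higher without late replicate 3). Their summed level was 7.66 to 14.8 CPM in prepupal and 23.3 to 28.9 CPM in late libraries. The share of salivary gland tissue in the dissections was not tested.

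Detoxification enzymes made up several of the other large falls. *Cyp4e3*, a cytochrome P450 (chromosome arm 2L, 9747839 to 9750071), had 1.95, 2.11 and 1.42 CPM in prepupal libraries, against 6.89, 45.3 and 24.5 CPM in late libraries, 14.2-fold lower in prepupae (log2 fold change -3.82 ± 0.54, adjusted p = 7.63e-05). Its late libraries differed from each other, with replicate 1 the lowest, yet none reached a prepupal value. *Ugt35A1*, a UDP-glycosyltransferase, had 1.29, 1.96 and 1.68 CPM in prepupal libraries, against 3.66, 15.1 and 8.76 CPM in late libraries (log2 fold change -2.49 ± 0.44, adjusted p = 6.41e-04). *Cyp6a23*, another P450, had 3.18, 3.68 and 3.70 CPM in prepupal libraries, against 15.6, 35.5 and 5.93 CPM in late libraries (log2 fold change -2.43 ± 0.44, adjusted p = 7.68e-04). *CG34215* changed by -2.60 and *Dup99B* by -2.49, both stable. *CG30087* (log2 fold change -3.31 ± 0.85, adjusted p = 0.0125) was high in late replicate 1 alone, with 0.419, 0.246 and 0.0787 CPM in prepupal libraries, against 6.16, 0.483 and 0.596 CPM in late libraries, and lost its call without late replicate 1 or without prepupal replicates 2 or 3 (adjusted p = 0.238, 0.0509 and 0.0832). *CG43153* (log2 fold change -2.96 ± 0.68, adjusted p = 0.00565) lost its call without late replicate 2 (adjusted p = 0.0621).

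**Figure D2:**
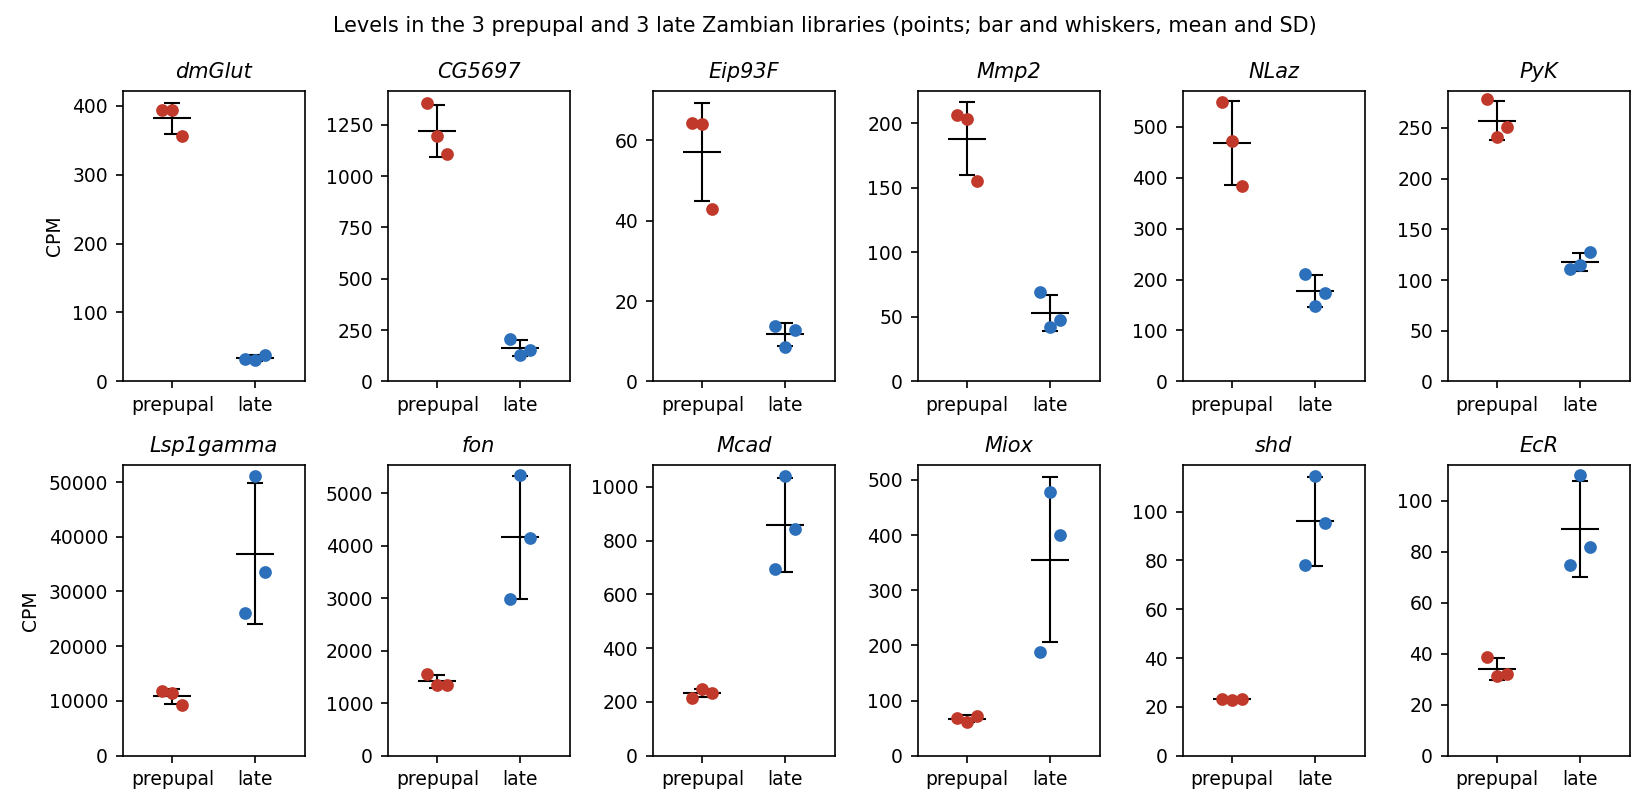
CPM on a linear axis that starts at 0 for 12 genes in the 3 prepupal (left, red) and 3 late (right, blue) Zambian libraries, with the mean and SD of each group as a bar and whiskers. In each of the 12 panels the groups do not overlap, and in the lower row the prepupal libraries spread less than the late ones, as for *Miox* with 60.4 to 71.8 CPM in prepupal and 188 to 478 CPM in late libraries.

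Turning to the hormone that triggers the transition, 25 ecdysone regulators and early genes were tested, of which 6 were higher (24%, against 3.64% of all genes) and 5 lower (20%, against 8.69%) in prepupae, with a median log2 fold change of -0.12 that became 0.08 and 0.11 under the other scalings. *Eip93F*, a transcription factor of the ecdysone response that directs metamorphosis and the death or autophagy of larval tissues, had 64.3, 64.1 and 42.9 CPM in prepupal libraries, against 13.7, 8.51 and 12.8 CPM in late libraries. The lowest prepupal value lay well above the highest late value, and the change was 4.86-fold (log2 fold change 2.28 ± 0.20, adjusted p = 5.74e-07). *ImpE2* and *ImpE1* were first found as ecdysone-inducible genes of imaginal discs. *ImpE2* had 11.02, 9.48 and 11.9 CPM in prepupal libraries, against 4.66, 1.90 and 3.22 CPM in late libraries (log2 fold change 1.72 ± 0.27, adjusted p = 2.03e-04). *ImpE1* had 8.87, 8.84 and 8.45 CPM in prepupal libraries, against 5.80, 4.24 and 4.59 CPM in late libraries (log2 fold change 0.83 ± 0.14, adjusted p = 3.30e-04). *Blimp-1*, a repressor that times the later response, had 10.3, 9.82 and 12.99 CPM in prepupal libraries, against 5.98, 4.09 and 5.39 CPM in late libraries (log2 fold change 1.10 ± 0.22, adjusted p = 0.00178). The nuclear receptor genes *Hr3* and *Eip75B* rose by 0.82 and 0.56, the second of which lost its call without late replicates 1 or 2 or without prepupal replicates 2 or 3 (adjusted p = 0.0588, 0.0660, 0.0687 and 0.0633).

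The receptor itself fell. *EcR* had 38.8, 31.2 and 32.02 CPM in prepupal libraries, against 74.7, 110.1 and 81.7 CPM in late libraries, 2.61-fold lower in prepupae and stable (log2 fold change -1.38 ± 0.18, adjusted p = 2.44e-05), while its partner *usp* had 32.6, 28.2 and 26.1 CPM in prepupal and 30.5, 34.9 and 34.96 CPM in late libraries and was not called (log2 fold change -0.21 ± 0.12, adjusted p = 0.244). *Hr39*, another nuclear receptor gene, changed by -0.77 ± 0.15 and *Eip74EF*, an early gene for an ETS transcription factor, by -0.73 ± 0.13, both stable. *Cth* and *Eip63E* were lower, at -0.56 and -0.53, but *Cth* lost its call without late replicates 2 or 3 or without prepupal replicates 2 or 3 (adjusted p = 0.112, 0.0826, 0.0896 and 0.0859) and *Eip63E* without late replicates 2 or 3 or without prepupal replicates 2 or 3 (adjusted p = 0.0752, 0.0872, 0.0505 and 0.0878) or under either other scaling (0.0812 and 0.111). *br*, the early gene of pupal commitment, stood at 288, 269 and 240.1 CPM in prepupal and 326, 399 and 405 CPM in late libraries (log2 fold change -0.51 ± 0.17, adjusted p = 0.0634), and *ftz-f1*, the competence factor of the later prepupal pulse, at 4.49, 5.84 and 4.28 CPM in prepupal and 4.87, 5.02 and 5.28 CPM in late libraries (log2 fold change -0.07 ± 0.14, adjusted p = 0.786). Neither was called, although *br* was without late replicate 1 (adjusted p = 0.0363).

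Of 7 genes listed for the import, activation and clearance of ecdysone, 2 were lower (28.6%, against 8.69% of all genes) and none higher (median 0.12). Under either other scaling 1 was lower and 2 were higher, *Npc1a* and *Npc2a*, both also counted among the lysosomal genes. The importer gene *EcI* matched no counted gene by name and was not tested. *shd*, which encodes the hydroxylase that turns ecdysone into 20-hydroxyecdysone, had 23.2, 22.98 and 23.2 CPM in prepupal libraries, against 78.3, 114.6 and 95.2 CPM in late libraries. The prepupal libraries were nearly identical, all late libraries lay far above them, and the change was 4.15-fold lower (log2 fold change -2.05 ± 0.21, adjusted p = 3.10e-06). *Cyp18a1*, which inactivates the hormone, had 2.19, 2.70 and 2.89 CPM in prepupal and 2.23, 1.82 and 1.70 CPM in late libraries and was not called (log2 fold change 0.43 ± 0.28, adjusted p = 0.313). The call of *Mrp4* (-0.46 ± 0.13, adjusted p = 0.0201) was lost without late replicates 2 or 3 or without prepupal replicate 2 (adjusted p = 0.141, 0.0720 and 0.0778) or under either other scaling (0.165 and 0.232). For juvenile hormone, which keeps larvae from metamorphosis, 3 of 9 genes were lower (33.3%, against 8.69% of all genes) and none higher (median -0.30). These were the epoxide hydrolase genes *Jheh1*, *Jheh2* and *Jheh3*, which break the hormone down and had log2 fold changes of -1.11, -0.79 and -0.86, the last not called without late replicate 2 (adjusted p = 0.0540). The number was 5 without late replicate 1. The receptor gene *Met* (-0.30 ± 0.11, adjusted p = 0.0912) and the target *Kr-h1* (0.01 ± 0.14, adjusted p = 0.963) were not called, but *Met* was without late replicate 1 (adjusted p = 0.0461).

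Storage proteins are the main export of the late larval fat body. Of the 6 genes listed for them, 4 were lower in prepupae (66.7%, against 8.69% of all genes) and none higher (median -1.06). The 4 lower ones were the *Lsp* genes, which encode the storage proteins. *Fbp1* and *Fbp2*, also in the list, do not encode storage proteins and were not called. *Lsp1gamma*, a subunit of larval serum protein 1, had 11742, 11402 and 9331 CPM in prepupal libraries, against 26120.5, 51065 and 33612 CPM in late libraries. It was 3.41-fold lower in prepupae (log2 fold change -1.77 ± 0.29, adjusted p = 2.81e-04). *Lsp1alpha*, for another subunit, had 6730.1, 5925 and 5675 CPM in prepupal libraries, against 14987, 24684 and 18199.5 CPM in late libraries (log2 fold change -1.66 ± 0.25, adjusted p = 1.43e-04). *Lsp1beta* had 14324, 12502 and 12566 CPM in prepupal libraries, against 28369, 47506 and 32830.1 CPM in late libraries (log2 fold change -1.46 ± 0.25, adjusted p = 4.47e-04). All 3 were stable, with late replicate 2 the highest each time, and were also lower in late than in early Zambian larvae, with log2 fold changes of -1.58, -2.03 and -1.72, again with shared late libraries. Together they took 3.27% to 3.41% of all reads in prepupal and 7.51% to 10.8% in late libraries.

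*Lsp2*, the gene for a storage hexamer of its own, had 25052, 24807 and 22295 CPM in prepupal libraries, against 32682, 42777 and 38770.1 CPM in late libraries (log2 fold change -0.66 ± 0.18, adjusted p = 0.0152), a smaller fall that was not called without late replicate 2 or without prepupal replicates 2 or 3 (adjusted p = 0.0957, 0.0560 and 0.0786). *Fbp1*, which encodes the receptor that takes storage proteins back into the fat body, had 237709, 215644 and 216530.0 CPM in prepupal libraries, against 188854, 205966 and 222311 CPM in late libraries. It was not called (log2 fold change 0.12 ± 0.19, adjusted p = 0.707), and it alone made up 24.4% to 25.7% of the reads of prepupal and 18.04% to 20.7% of those of late libraries. *Fbp2* was not called either (log2 fold change -0.12 ± 0.17, adjusted p = 0.663).

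Per unit of gene length, the first 6 genes had the same order in both stages. In TPM, the count divided by gene length and scaled to a sum of 1000000 over the genes kept, the 7SL RNA gene *7SLRNA:CR32864*, the RNA of the signal recognition particle, stood at 319659 ± 7338 TPM in prepupal and 291931 ± 4090.0 TPM in late libraries, each mean ± SD with n = 3. *Fbp1* followed with 104729 ± 4836 TPM in prepupal and 83552 ± 6419 TPM in late libraries, *Obp99b*, an odorant-binding protein gene, with 34496 ± 1459.5 TPM in prepupal and 42375 ± 2960.3 TPM in late libraries, and *Fbp2* with 32941 ± 1074 TPM in prepupal and 30729 ± 2060.2 TPM in late libraries. *CG34166* had 18419.6 ± 495 TPM in prepupal and 24869 ± 804 TPM in late libraries, *Lsp2* had 15780.4 ± 895 TPM in prepupal and 21511 ± 583 TPM in late libraries and the lncRNA gene *CR11538* had 12518 ± 491 TPM in prepupal and 17247 ± 552 TPM in late libraries. The *Lsp1* genes closed the 10 highest, *Lsp1gamma* with 7013 ± 510.2 TPM in prepupal and 20389 ± 5082 TPM in late libraries, *Lsp1beta* with 7752 ± 265 TPM in prepupal and 18300.2 ± 3329.8 TPM in late libraries and *Lsp1alpha* with 3774 ± 31.2 TPM in prepupal and 10206 ± 1611 TPM in late libraries. Of these genes other than the *Lsp1* group and *Lsp2*, *CG34166* (log2 fold change -0.64 ± 0.17, adjusted p = 0.0142) and *CR11538* (log2 fold change -0.68 ± 0.17, adjusted p = 0.0119) were called lower. The first lost its call without late replicate 2 or without prepupal replicates 2 or 3 (adjusted p = 0.0947, 0.0677 and 0.0851) and the second without late replicate 2 or without prepupal replicates 2 or 3 (adjusted p = 0.0810, 0.0505 and 0.0658). *Obp99b* (log2 fold change -0.51 ± 0.18, adjusted p = 0.0656) was called without late replicate 1 or without prepupal replicate 1 (adjusted p = 0.0266 and 0.0488) or with factors from well-expressed genes (0.0356).

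Signals that the fat body sends to other tissues moved both ways. Of 23 such genes, 4 were higher (17.4%, against 3.64% of all genes) and 10 lower (43.5%, against 8.69%) in prepupae, with a median of -0.51. Under either other scaling 6 were higher and 9 lower. *NLaz*, which encodes a lipocalin related to apolipoprotein D, had 549, 473 and 385 CPM in prepupal libraries, against 211, 149 and 174 CPM in late libraries (log2 fold change 1.40 ± 0.16, adjusted p = 8.94e-06). *CCHa2*, for a nutrient-dependent peptide that acts on insulin release, rose by 0.52, and *Gbp1*, for a growth-blocking peptide, by 0.59, the second not called without late replicate 2 or without prepupal replicates 1 or 2 (adjusted p = 0.0809, 0.0561 and 0.0551). *GLaz*, the other lipocalin gene of the list, was higher by 1.06, at 1.68, 1.52 and 1.18 CPM in prepupal and 0.909, 0.632 and 0.536 CPM in late libraries, and not called without late replicates 2 or 3 or without prepupal replicates 1 or 2 (adjusted p = 0.121, 0.134, 0.0854 and 0.0897).

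The falls included *Idgf5*, *Idgf6* and *Idgf4*, chitinase-like growth factors of imaginal discs, at -1.47, -1.29 and -1.02. *Idgf6*, the one of these with the most reads, had 434, 353 and 334 CPM in prepupal libraries, against 806, 1079.8 and 849 CPM in late libraries. *egr*, the tumour necrosis factor of the fly, had 47.4, 33.5 and 27.8 CPM in prepupal libraries, against 82.1, 130.2 and 75.9 CPM in late libraries (log2 fold change -1.40 ± 0.21, adjusted p = 1.42e-04). *ImpL2*, which encodes a protein that binds and blocks insulin-like peptides, had 7.55, 6.92 and 6.40 CPM in prepupal libraries, against 13.4, 20.6 and 19.9 CPM in late libraries (log2 fold change -1.37 ± 0.20, adjusted p = 8.55e-05). *daw*, an activin-like ligand, changed by -0.79 ± 0.18. The falls of these genes were stable, whereas those of *Gbp2*, *Gbp3* and *Idgf3* (-0.58, -0.56 and -0.46) were not stable. *Gbp2* was not called without late replicate 2 or without prepupal replicates 2 or 3 (adjusted p = 0.0758, 0.0643 and 0.0876), *Gbp3* not without late replicate 2 or without prepupal replicates 2 or 3 (adjusted p = 0.0825, 0.0801 and 0.0774), and *Idgf3* not without late replicate 2 or without prepupal replicates 2 or 3 (adjusted p = 0.103, 0.139 and 0.108) or under either other scaling (0.0794 and 0.101). In all, 2 were higher and 7 lower without late replicate 2 or prepupal replicate 2, 2 higher and 11 lower without prepupal replicate 1, and 6 lower without prepupal replicate 3. *Ilp6*, an insulin-like peptide gene of the fat body, was not called (log2 fold change 0.28 ± 0.14, adjusted p = 0.202) but was under either other scaling (adjusted p = 0.00423 and 0.00294).

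Genes for the breakup of the tissue showed one large rise among small falls. *Mmp2*, the membrane-anchored matrix metalloproteinase needed for fat body remodelling, had 206, 203 and 155 CPM in prepupal libraries, against 69.04, 42.3 and 47.8 CPM in late libraries, a 3.54-fold rise (log2 fold change 1.82 ± 0.18, adjusted p = 1.78e-06). *Mmp1*, the secreted one, had 89.1, 71.8 and 61.4 CPM in prepupal and 52.4, 43.4 and 55.2 CPM in late libraries (log2 fold change 0.56 ± 0.21, adjusted p = 0.0930) and was called under either other scaling (adjusted p = 0.0493 and 0.0481). Of the 20 matrix, protease and integrin genes (median -0.14), 6 were lower (30%, against 8.69% of all genes) and 1, *Mmp2*, higher (5%, against 3.64%). The lower ones were *mew*, an integrin subunit (-0.90 ± 0.14), *trol*, the perlecan of the basement membrane (-0.58 ± 0.16), the collagen IV genes *vkg* (-0.61 ± 0.15) and *Col4a1* (-0.51 ± 0.14), *Pxn* (-0.57 ± 0.12) and *Ndg* (-0.49 ± 0.15). Without late replicate 2 or prepupal replicate 3 the number was 2, without prepupal replicate 2 it was 3, and with the other scalings it was 4 and 3, beside 4 higher. Of 20 actomyosin and adhesion genes (median -0.01), *shg*, the E-cadherin gene, was higher, with 91.6, 81.5 and 73.3 CPM in prepupal and 52.5, 40.1 and 41.2 CPM in late libraries (log2 fold change 0.88 ± 0.17, adjusted p = 0.00119), and *cher*, the filamin gene, lower, with 70.3, 52.6 and 56.03 CPM in prepupal and 131, 188 and 156 CPM in late libraries (log2 fold change -1.41 ± 0.15, adjusted p = 4.71e-06). Both were stable. The 1 higher and 1 lower gene were each 5% of this list, against 3.64% and 8.69% of all genes. Under both other scalings, 6 genes of this list were higher.

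Autophagy, lysosome and proton pump genes were called higher at about the share of all genes, with 3.03%, 4.35% and 3.57% of their members against 3.64%, and none was lower. Of 33 autophagy genes (median -0.08) 1 passed the test, *Atg2* (log2 fold change 0.39 ± 0.12, adjusted p = 0.0442), and it lost the call in each of the 6 omissions (adjusted p from 0.0601 to 0.155), while 5 or 6 were higher under the other scalings. *Atg8a*, the list member with the most reads, had 389, 331 and 291 CPM in prepupal and 315, 427 and 388 CPM in late libraries (log2 fold change -0.16 ± 0.19, adjusted p = 0.592), after a rise of 1.12 ± 0.19 over the preceding interval. Among 23 lysosomal genes (median 0.004), *Gal*, a beta-galactosidase gene, was higher (log2 fold change 1.05 ± 0.18, adjusted p = 3.56e-04, stable), and 4 were under the other scalings. Of 28 genes for the vacuolar proton pump (median -0.05), *Vha14-2* was called (log2 fold change 1.15 ± 0.37, adjusted p = 0.0498), with at most 1.33 CPM, and its call was lost without late replicates 2 or 3 or without prepupal replicates 2 or 3 (adjusted p = 0.0802, 0.207, 0.186 and 0.134). In the list of 11 cell death genes (median 0.02), 1 was higher (9.09%, against 3.64% of all genes) and 1 lower (9.09%, near the 8.69% of all genes). *Dronc*, the initiator caspase of the apoptosome, had 50.3, 41.6 and 35.4 CPM in prepupal libraries, against 19.4, 23.3 and 27.8 CPM in late libraries (log2 fold change 0.85 ± 0.16, adjusted p = 0.00123). *Decay*, an effector caspase, had 14.05, 10.6 and 11.5 CPM in prepupal libraries, against 25.5, 35.3 and 23.5 CPM in late libraries (log2 fold change -1.22 ± 0.21, adjusted p = 5.07e-04).

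In sugar metabolism, 3 enzymes of glycolysis rose while 6 genes around trehalose and glycogen fell. Of 14 glycolysis genes 3 were higher (21.4%, against 3.64% of all genes), all stable, and none lower. When factors came from well-expressed genes, 4 were higher. *PyK*, the pyruvate kinase gene, had 278, 241 and 251 CPM in prepupal libraries, against 110.4, 114 and 128 CPM in late libraries, a 2.19-fold rise (log2 fold change 1.13 ± 0.13, adjusted p = 7.75e-06). *Hex-C*, a hexokinase gene, had 22.8, 23.1 and 19.8 CPM in prepupal libraries, against 11.4, 8.70 and 10.1 CPM in late libraries (log2 fold change 1.12 ± 0.18, adjusted p = 2.77e-04). *Pfk*, the phosphofructokinase gene, had 52.2, 47.5 and 44.9 CPM in prepupal libraries, against 24.9, 30.3 and 25.96 CPM in late libraries (log2 fold change 0.83 ± 0.15, adjusted p = 6.48e-04). The other 11 were not called and ranged down to -0.49 for *Hex-A*, with *Gapdh1*, the member with the most reads, at 828, 827 and 797 CPM in prepupal and 804, 1059.8 and 1038 CPM in late libraries (log2 fold change -0.24 ± 0.15, adjusted p = 0.307), so that the list's median was -0.19. The median was 0.02 or 0.06 under the other scalings, which changed its sign.

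Of 12 genes for trehalose, glycogen and gluconeogenesis, 6 were lower (50%, against 8.69% of all genes) and none higher. The median was -0.48. *Treh*, which splits trehalose, the blood sugar of insects, had 27.9, 22.7 and 24.1 CPM in prepupal libraries, against 54.9, 65.9 and 53.6 CPM in late libraries (log2 fold change -1.22 ± 0.14, adjusted p = 6.92e-06). *PCB*, the pyruvate carboxylase gene at the entry to gluconeogenesis, had 335, 354 and 362 CPM in prepupal libraries, against 588, 872 and 910.0 CPM in late libraries (log2 fold change -1.17 ± 0.20, adjusted p = 5.36e-04). *Tps1*, which makes trehalose, changed by -0.76, *Pgm1*, a phosphoglucomutase gene, by -0.68, *Tret1-1*, the trehalose transporter gene, by -0.68 and *Glyp*, for glycogen phosphorylase, by -0.61. The number was 3 without late replicate 2, when *Tps1*, *Pgm1* and *Glyp* were not called (adjusted p = 0.0797, 0.177 and 0.0997), and also 3 without prepupal replicate 2 (0.0649, 0.0890 and 0.0710). *Pepck1*, the list member with the most reads, was not called (log2 fold change 0.19 ± 0.25, adjusted p = 0.632).

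Genes for fat breakdown and for the tricarboxylic acid cycle gave falls and no rise under TMM scaling, while the share of falls among genes for oxidative phosphorylation was near that of all genes. In the list of lipolysis and fatty acid oxidation, 5 of 17 genes were lower (29.4%, against 8.69% of all genes) and none higher. The median was -0.41. *Mcad*, the medium-chain acyl-CoA dehydrogenase gene, had 216, 248 and 233 CPM in prepupal libraries, against 694, 1041 and 842 CPM in late libraries. It was 3.70-fold lower (log2 fold change -1.89 ± 0.23, adjusted p = 1.35e-05) and stable, and 10 members were called lower without late replicate 1 but 2 without late replicate 2 and 3 without prepupal replicate 2 or 3. *Etf-QO*, which passes electrons from fatty acid oxidation to ubiquinone, and *Acox57D-d*, a peroxisomal acyl-CoA oxidase gene, had log2 fold changes of -0.86 and -0.83, the first not called without late replicate 2 (adjusted p = 0.0600). The lipase genes *bmm* (-0.25 ± 0.19, adjusted p = 0.413) and *Hsl* (-0.16 ± 0.14, adjusted p = 0.472) were not called. In the list of the tricarboxylic acid cycle, 5 of 19 genes were lower (26.3%, against 8.69% of all genes) and none higher. The median was -0.28. Under either other scaling 4 were lower and 2 higher. The list included *Gdh*, the glutamate dehydrogenase gene, which is not an enzyme gene of the cycle itself and is also counted under glutamate handling. *Gdh* had the largest fall, with 71.02, 66.7 and 66.01 CPM in prepupal libraries, against 102, 225 and 166 CPM in late libraries (log2 fold change -1.27 ± 0.29, adjusted p = 0.00509). That call was narrowly lost without late replicate 2 (adjusted p = 0.0506), when 1 of the 19 genes was lower, against 8 without late replicate 1. *Mdh2*, a malate dehydrogenase gene, had 178, 147 and 147 CPM in prepupal and 269.5, 377 and 326 CPM in late libraries (log2 fold change -1.04 ± 0.19, adjusted p = 9.40e-04) and was stable.

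Of 72 nuclear genes for oxidative phosphorylation, 6 were lower (8.33%, near the 8.69% of all genes) and none higher, at a median of -0.37. The number was 27 without late replicate 1, 0 without late replicate 2 or prepupal replicate 2 or 3, 1 without late replicate 3, and 0 or 1 under the other scalings, which also called 1 gene higher. *ATPsynbeta*, which encodes a subunit of the ATP synthase, had 201, 174 and 179 CPM in prepupal and 196, 286 and 255 CPM in late libraries (log2 fold change -0.41 ± 0.19, adjusted p = 0.159). None of the 13 genes of the mitochondrial genome was called (median -0.13), and *mt:CoI* stood at 5540.1, 5118 and 4414 CPM in prepupal and 4705, 6710.2 and 5780.0 CPM in late libraries.

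Fat synthesis was mixed, with 2 of 17 genes higher (11.8%, against 3.64% of all genes) and 3 lower (17.6%, against 8.69%), at a median of -0.15. *FASN3*, described above, and *Men*, the malic enzyme gene that supplies reducing power (log2 fold change 0.75 ± 0.24, adjusted p = 0.0454), were the higher ones, the second not called without late replicates 1 or 3 or without prepupal replicates 1, 2 and 3 (adjusted p = 0.113, 0.173, 0.0796, 0.110 and 0.105). *ATPCL*, which makes cytosolic acetyl-CoA from citrate, had 56.2, 47.8 and 50.7 CPM in prepupal libraries, against 90.1, 114 and 98.1 CPM in late libraries (log2 fold change -0.97 ± 0.17, adjusted p = 6.19e-04). *bigmax*, the partner of the sugar sensor Mondo, had 7.13, 7.56 and 7.19 CPM in prepupal libraries, against 15.4, 16.1 and 14.2 CPM in late libraries (log2 fold change -1.06 ± 0.14, adjusted p = 3.44e-05). *AcCoAS* was lower, at -0.53, a call lost without late replicates 2 or 3 or without prepupal replicates 1, 2 and 3 (adjusted p = 0.151, 0.0710, 0.0630, 0.0870 and 0.0632) or under either other scaling (0.0653 and 0.0885). Under either other scaling the list had 4 higher and 2 lower genes. *FASN1*, the main fatty acid synthase gene of the fat body, had 282, 167 and 163 CPM in prepupal and 241, 403 and 273 CPM in late libraries (log2 fold change -0.58 ± 0.23, adjusted p = 0.108) and was called without late replicate 1 or without prepupal replicate 1 (adjusted p = 0.0497 and 0.0193). In the assembly of triglycerides, 3 of 14 genes were lower (21.4%, against 8.69% of all genes) and none higher (median -0.20), or 1 lower without late replicate 2 or prepupal replicate 3. *Lsd-1*, a perilipin gene of the lipid droplet surface, had 708, 581 and 591 CPM in prepupal libraries, against 1056, 1181 and 1088 CPM in late libraries (log2 fold change -0.82 ± 0.16, adjusted p = 0.00160), and *Lsd-2*, the other perilipin gene, and *Agpat2* had log2 fold changes of -0.64 and -0.68. *Lsd-2* was not called without late replicates 2 or 3 or without prepupal replicates 2 or 3 (adjusted p = 0.0621, 0.0603, 0.0557 and 0.0565) and *Agpat2* not without late replicate 2 or without prepupal replicate 3 (adjusted p = 0.115 and 0.106).

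Amino acid breakdown held 5 lower genes of 15 (33.3%, against 8.69% of all genes) and none higher. The same number was called lower in each omission and under both other scalings, which also called 2 higher. *Agxt*, an aminotransferase gene of glyoxylate metabolism, had 25.4, 21.6 and 22.1 CPM in prepupal libraries, against 86.1, 148 and 101 CPM in late libraries (log2 fold change -2.28 ± 0.29, adjusted p = 2.38e-05). *Gnmt*, which makes sarcosine, had 60.7, 44.3 and 56.5 CPM in prepupal libraries, against 136, 217 and 135 CPM in late libraries (log2 fold change -1.60 ± 0.29, adjusted p = 6.84e-04). *Sardh*, which breaks it down, had 43.4, 39.3 and 38.9 CPM in prepupal libraries, against 80.8, 129 and 110.4 CPM in late libraries (log2 fold change -1.40 ± 0.22, adjusted p = 2.01e-04). *KFase*, of tryptophan breakdown, changed by -1.32 and *Hn*, the phenylalanine hydroxylase gene, by -0.86. The median of the list was nonetheless 0.27, since 8 of its other 10 members, none of them called, had positive values. Those 10 include *w* and *st*, for transporters of pigment precursors, and *Ddc*, which makes dopamine and is also counted among the tanning enzymes. These genes are not enzyme genes of amino acid breakdown, so the median does not stand for that pathway alone. Among 11 genes for purine synthesis and urate (median -0.16), 1 was lower (9.09%, near the 8.69% of all genes) and 1 higher (9.09%, against 3.64%). *ry*, for xanthine dehydrogenase, was lower (log2 fold change -1.19 ± 0.18, adjusted p = 1.29e-04, stable) and *Adss* higher (log2 fold change 0.59 ± 0.15, adjusted p = 0.0126), the second not called without late replicate 3 or without prepupal replicate 1 (adjusted p = 0.0587 and 0.0676).

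**Figure D3:**
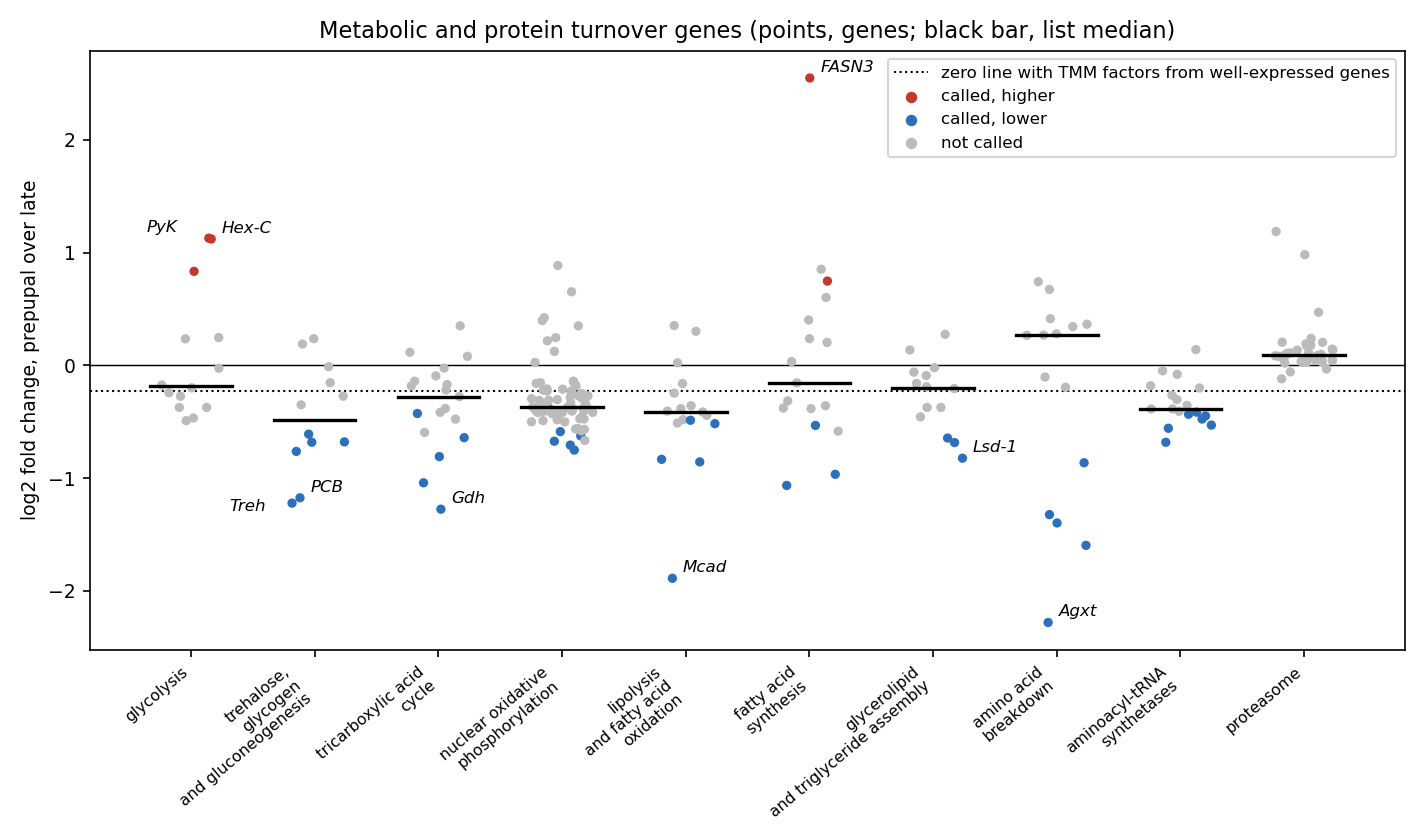
Log2 fold change, prepupal over late, of each gene (point) in 10 lists, with called genes in red (higher) or blue (lower) and the list median as a black bar. Solid and dotted horizontal lines mark 0 under TMM and the place of 0 when factors come from well-expressed genes. Medians run from -0.48 for trehalose, glycogen and gluconeogenesis to 0.27 for amino acid breakdown (a list that also holds *w*, *st* and *Ddc*), and the 38 proteasome genes, none of them called under TMM but 28 or 31 called higher under the other scalings, have a median of 0.09.

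Changes in the machinery of translation and protein breakdown were small, and its calls moved with the scaling. None of the 89 ribosomal protein genes was called (median -0.28), with *RpL3* at 1478, 1367 and 1258 CPM in prepupal and 1421, 1803 and 1770.2 CPM in late libraries (log2 fold change -0.28 ± 0.15, adjusted p = 0.227), and 3 were lower without late replicate 1. Of 18 aminoacyl-tRNA synthetase genes, 7 were lower (38.9%, against 8.69% of all genes) and none higher (median -0.39). The largest fall was that of *IleRS* (log2 fold change -0.68 ± 0.17, adjusted p = 0.00953), which was not called without late replicate 2 or without prepupal replicate 3 (adjusted p = 0.106 and 0.0557). The number was 10 without late replicate 1, 0 without late replicate 2, 3 without late replicate 3, 1 without prepupal replicate 2 or 3, and 1 lower and 1 higher under each other scaling. None of 38 proteasome genes was called in the TMM fit (median 0.09), whereas 28 were higher with upper-quartile factors and 31 with factors from well-expressed genes. *Rpn6*, for example, had 289, 261 and 265 CPM in prepupal and 201, 233 and 256 CPM in late libraries (log2 fold change 0.24 ± 0.12, adjusted p = 0.213), with an adjusted p of 0.00146 and 0.00113 under those scalings. Of 29 genes for replication and the endocycle (median -0.02), 1 was lower (3.45%, against 8.69% of all genes). This was *fzr*, which drives the switch to endocycles (log2 fold change -0.72 ± 0.13, adjusted p = 6.77e-04, stable). None of 43 histone genes was called (median -0.02), with 3 higher under either other scaling.

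Of the 38 lists, that of cytochrome P450 genes held the most falls. Of 85 cytochrome P450 genes (median -0.42), 35 were lower (41.2%, against 8.69% of all genes) and 2 higher (2.35%, against 3.64%). The number lower was 26 to 37 across the omissions and 30 under both other scalings. After *Cyp4e3*, *Cyp6a23* and *shd*, the largest falls were those of *Cyp28a5* and *Cyp9b2*. *Cyp28a5* had 29.5, 15.96 and 19.00 CPM in prepupal libraries, against 84.6, 116 and 66.7 CPM in late libraries (log2 fold change -2.05 ± 0.30, adjusted p = 8.55e-05), and *Cyp9b2* had 24.5, 20.9 and 22.7 CPM in prepupal libraries, against 57.3, 124 and 76.6 CPM in late libraries (log2 fold change -1.92 ± 0.28, adjusted p = 9.13e-05). *Cyp6g1*, the P450 gene with the most reads, whose overexpression gives insecticide resistance, had 2455, 1933 and 2069 CPM in prepupal and 2863, 3212 and 2848 CPM in late libraries and was not called (log2 fold change -0.47 ± 0.16, adjusted p = 0.0641) except without prepupal replicate 1 (adjusted p = 0.0448). The higher genes were *Cyp4g1*, an enzyme of hydrocarbon synthesis in oenocytes, with 8.96, 7.71 and 8.66 CPM in prepupal and 3.17, 2.30 and 2.26 CPM in late libraries (log2 fold change 1.71 ± 0.37, adjusted p = 0.00390, stable), and *Cyp309a1* with 279.6, 243 and 279 CPM in prepupal and 132, 193 and 189 CPM in late libraries (log2 fold change 0.64 ± 0.18, adjusted p = 0.0225), not called without late replicate 1 or without prepupal replicates 1 or 3 (adjusted p = 0.0781, 0.0552 and 0.0811).

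Of 33 glutathione S-transferase genes (median -0.34), 11 were lower (33.3%, against 8.69% of all genes) and 1 higher (3.03%, near the 3.64% of all genes). Under either other scaling 9 were lower and 3 higher, and the median was -0.15 and -0.13. *GstT4* had 63.3, 85.5 and 70.2 CPM in prepupal libraries, against 265, 410.3 and 295 CPM in late libraries (log2 fold change -2.15 ± 0.39, adjusted p = 7.81e-04), *GstT3* had 4.64, 4.22 and 4.04 CPM in prepupal libraries, against 18.4, 27.7 and 12.6 CPM in late libraries (log2 fold change -2.18 ± 0.34, adjusted p = 2.04e-04). *GstE3*, the one with the most reads, had 289.5, 243 and 257 CPM in prepupal libraries, against 537, 718 and 692 CPM in late libraries (log2 fold change -1.30 ± 0.21, adjusted p = 2.02e-04). These were stable, with 8 to 13 genes lower in the omissions. *GstD5*, the higher one, had 12.7, 16.1 and 28.6 CPM in prepupal and 2.40, 12.9 and 7.42 CPM in late libraries (log2 fold change 1.36 ± 0.36, adjusted p = 0.0163), so that prepupal replicate 1 lay just below late replicate 2, and it lost the call without late replicate 3 or without prepupal replicate 3 (adjusted p = 0.0516 and 0.152). Of 34 UDP-glycosyltransferase genes, 7 were lower (20.6%, against 8.69% of all genes) and none higher, although the median was 0.28. Without late replicate 1, 3 were higher, and 2 were under either other scaling. *Ugt301D1*, after *Ugt35A1* the largest fall of the list, was 4.12-fold lower (log2 fold change -2.04 ± 0.22, adjusted p = 5.10e-06). Among 10 genes for metal binding and iron (median 0.05, with 4 higher under either other scaling), the ferritin genes *Fer1HCH* and *Fer2LCH* were higher (0.56 ± 0.13 and 0.42 ± 0.13), the second not called without late replicates 1, 2 and 3 or without prepupal replicates 1 or 2 (adjusted p = 0.0809, 0.140, 0.0739, 0.136 and 0.0903). *MtnA*, a metallothionein gene (log2 fold change -1.81 ± 0.43, adjusted p = 0.00728), and *Tsf1*, for transferrin (log2 fold change -0.76 ± 0.19, adjusted p = 0.00956), were lower. *MtnA* overlapped between the stages and was not called without late replicate 3 (adjusted p = 0.0915), and *Tsf1* was not called without late replicate 1 or without prepupal replicate 3 (adjusted p = 0.0524 and 0.0733) or with factors from well-expressed genes (0.0544).

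**Figure D4:**
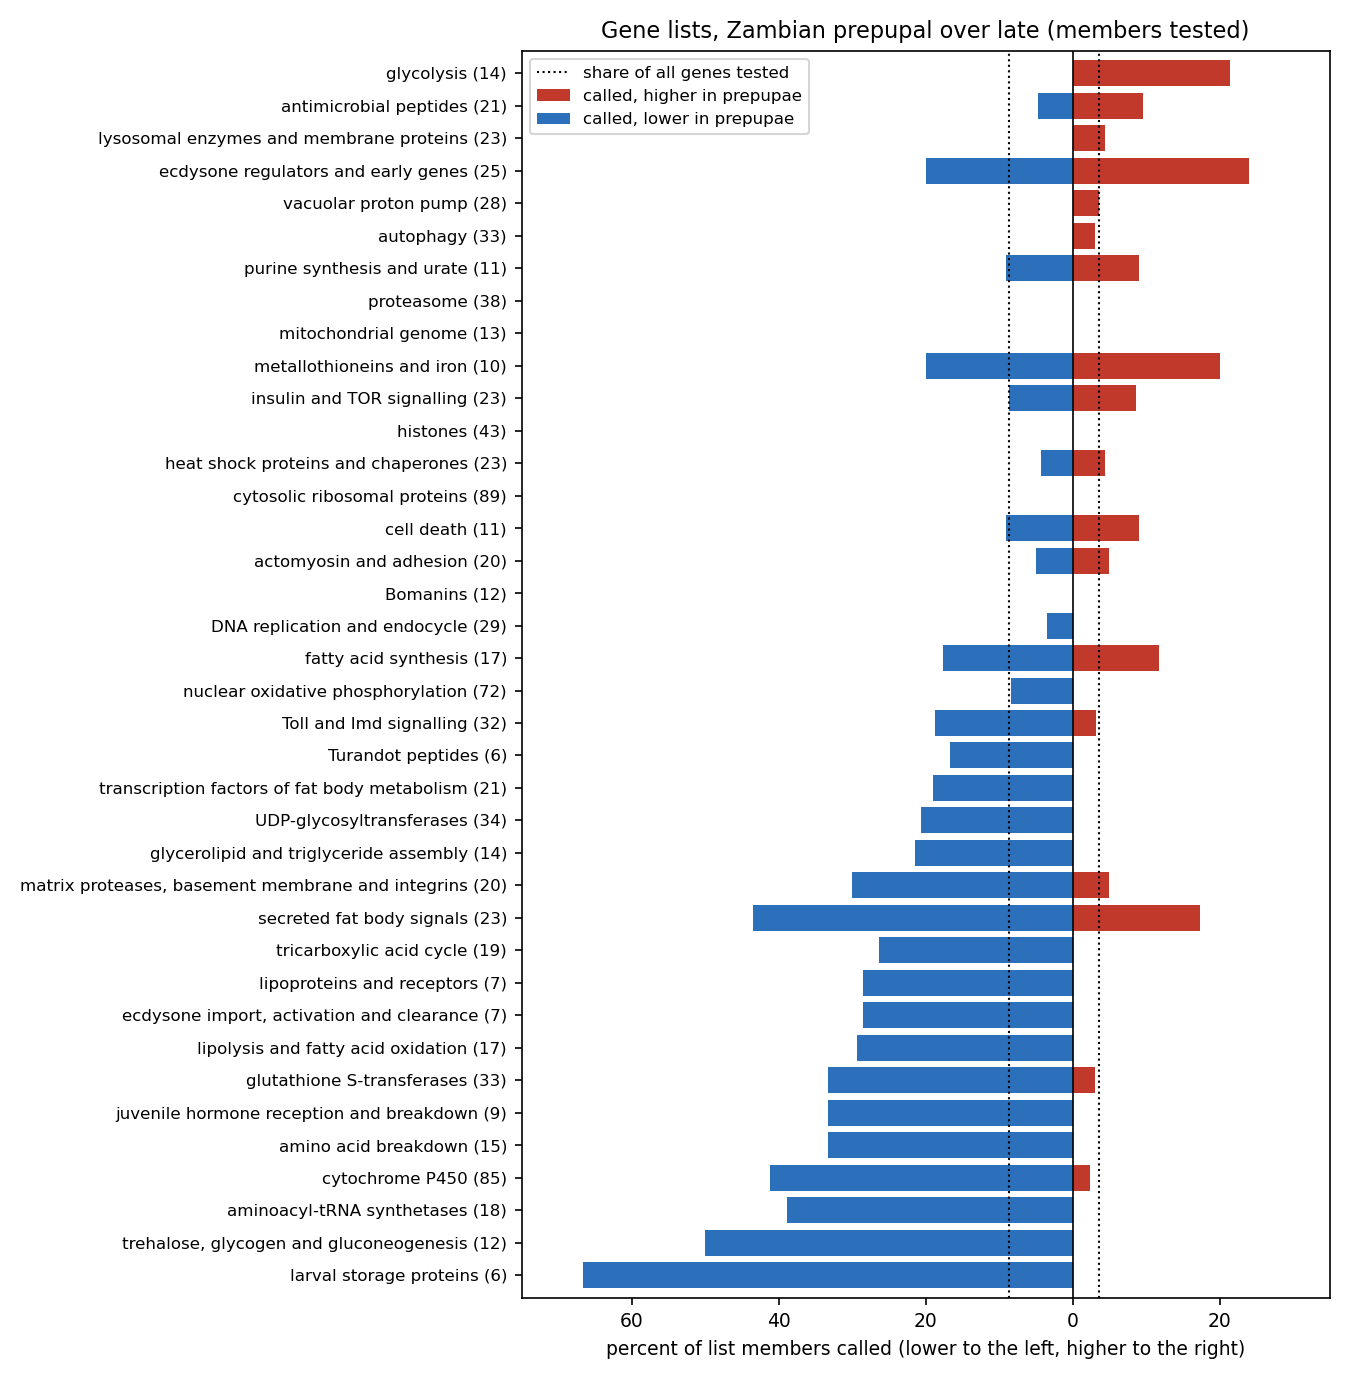
Percentage of the members tested (number in brackets) that were called lower (blue, to the left) or higher (red, to the right) in prepupae, for 38 lists, with dotted lines at 8.69% and 3.64%, the shares among all 12460 genes. The bars reach 66.7% lower for larval storage proteins (a list that also holds *Fbp1* and *Fbp2*), 50% for trehalose, glycogen and gluconeogenesis and 41.2% for cytochrome P450, while ecdysone regulators reach 24% higher and 20% lower.

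Immune peptide genes differed widely between libraries of 1 stage. The 12 Bomanin genes, short peptides secreted on Toll activation, summed to 581, 555 and 208 CPM in prepupal and 1365, 220 and 69.1 CPM in late libraries, where late replicate 1 stood far above the other late libraries. None was called (median -0.45), with *BomS3* at 92.7, 109 and 53.6 CPM in prepupal and 376, 53.2 and 17.8 CPM in late libraries (log2 fold change -0.81 ± 0.74, adjusted p = 0.487), and 3 were higher in prepupae without late replicate 1. Of 21 antimicrobial peptide genes 2 were higher (9.52%, against 3.64% of all genes) and 1 lower (4.76%, against 8.69%), with a median of -0.59, or 1 higher without late replicate 2 or 3 or prepupal replicate 3. *Drsl5* had 228, 214 and 151 CPM in prepupal libraries, against 100.5, 64.6 and 76.7 CPM in late libraries (log2 fold change 1.29 ± 0.27, adjusted p = 0.00266). *AttC* had 15.1, 21.9 and 13.8 CPM in prepupal libraries, against 45.9, 55.5 and 33.3 CPM in late libraries (log2 fold change -1.41 ± 0.32, adjusted p = 0.00475), both stable. *AttD* was higher (log2 fold change 1.58 ± 0.40, adjusted p = 0.0112) but not called without late replicates 2 or 3 or without prepupal replicate 3 (adjusted p = 0.0598, 0.0671 and 0.0733). *Drs*, the list member with the most reads, had 1149.7, 1306 and 907 CPM in prepupal and 1428, 915 and 966 CPM in late libraries (log2 fold change 0.02 ± 0.21, adjusted p = 0.954). Among 6 Turandot stress peptide genes (median -1.19), *TotC* was called lower (log2 fold change -2.52 ± 0.73, adjusted p = 0.0263), but rested on late replicate 1, with 2.22, 1.38 and 0.971 CPM in prepupal libraries, against 22.7, 2.23 and 1.10 CPM in late libraries, and was not called without late replicate 1 or without prepupal replicates 2 or 3 (adjusted p = 0.877, 0.0942 and 0.126) or under either other scaling (0.0521 and 0.0546).

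Upstream of these peptides, 6 of 32 Toll and Imd pathway genes were lower (18.75%, against 8.69% of all genes) and 1 higher (3.1%, near the 3.64% of all genes), with a median of -0.23. Under both other scalings 5 were higher and 4 lower. *Tl*, the Toll receptor gene, had 90.4, 111 and 89.2 CPM in prepupal libraries, against 189, 204 and 147 CPM in late libraries (log2 fold change -0.90 ± 0.18, adjusted p = 0.00223). *psh* and *Hayan*, proteases that activate the pathway, changed by -0.88 and -0.53, all of them stable. *PGRP-SA*, a sensor of bacterial peptidoglycan, was lower, at -0.81 but not called without late replicate 2 or without prepupal replicates 2 or 3 (adjusted p = 0.0741, 0.0627 and 0.0633). *GNBP1*, at -0.74, was not called without late replicates 2 or 3 or without prepupal replicates 2 or 3 (adjusted p = 0.156, 0.0634, 0.123 and 0.128) or under either other scaling (0.0708 and 0.0734). *SPE*, the protease that cleaves the Toll ligand, was high in late replicate 1 (-1.37) and not called without late replicate 1 or without prepupal replicates 2 or 3 (adjusted p = 0.246, 0.0687 and 0.111) or under either other scaling (0.0568 and 0.0628). *IKKbeta*, a kinase gene of the Imd pathway, was the higher one (0.55 ± 0.12).

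Of 23 genes of insulin and TOR signalling, 2 were higher (8.70%, against 3.64% of all genes) and 2 lower (8.70%, near the 8.69% of all genes), with a median of -0.09. *Sesn*, a brake on TOR, had 248, 223 and 220.2 CPM in prepupal libraries, against 133, 145 and 159.7 CPM in late libraries (log2 fold change 0.66 ± 0.14, adjusted p = 0.00304). *Pdk1*, a kinase of the insulin pathway, had 83.4, 81.5 and 84.1 CPM in prepupal libraries, against 163, 189.8 and 195 CPM in late libraries (log2 fold change -1.14 ± 0.13, adjusted p = 5.45e-06), both stable, as was *ImpL2* above. *slif*, an amino acid transporter gene, rose by 0.85 and lost its call without late replicates 2 or 3 or without prepupal replicates 2 or 3 (adjusted p = 0.171, 0.0792, 0.0590 and 0.207). Under the other scalings 5 or 6 genes of the list were higher. Among 23 heat shock proteins and chaperones the median was 0.48, but only 1 was called higher and 1 lower, each 4.35%, against 3.64% and 8.69% of all genes. These were *Hsp67Ba*, higher (log2 fold change 0.996 ± 0.23, adjusted p = 0.00687), and *Gp93*, of the endoplasmic reticulum, lower (log2 fold change -0.76 ± 0.20, adjusted p = 0.0152). The first was not called without late replicate 2 (adjusted p = 0.0548) and the second not without late replicates 2 or 3 or without prepupal replicate 3 (adjusted p = 0.0534, 0.0615 and 0.0733), and 6 genes were higher without late replicate 3. *Hsp23*, with the most reads, had 4938, 4044 and 3698 CPM in prepupal and 2471, 2661 and 3233 CPM in late libraries (log2 fold change 0.60 ± 0.32, adjusted p = 0.228). Of 21 transcription factor genes of fat body metabolism 4 were lower (19.0%, against 8.69% of all genes) and none higher (median -0.15). The lower ones were *bigmax*, *Jra* (-0.57), *Keap1* (-0.52) and *Xbp1* (-0.49). *Jra* was not called without late replicate 3 or without prepupal replicate 3 (adjusted p = 0.134 and 0.0853) or under either other scaling (0.111 and 0.133), *Keap1* not without late replicates 2 or 3 (adjusted p = 0.0551 and 0.0681) or under either other scaling (0.142 and 0.201) and *Xbp1* not without late replicates 2 or 3 or without prepupal replicates 2 or 3 (adjusted p = 0.153, 0.0622, 0.109 and 0.101). The number was 2 without late replicate 2 or prepupal replicate 3 and 1 without late replicate 3, while 3 or 4 genes of the list were higher under the other scalings. Of 7 lipoprotein and lipoprotein receptor genes (median -0.02), 2 were lower (28.6%, against 8.69% of all genes) and none higher. Under the other scalings 2 were lower and 1 or 2 higher. *LpR1*, a receptor for lipoprotein uptake, was lower and stable (log2 fold change -1.06 ± 0.15, adjusted p = 7.68e-05). *Mtp*, which loads lipid onto lipoproteins, was lower (-0.54 ± 0.16) but not called without late replicates 2 or 3 or without prepupal replicates 2 or 3 (adjusted p = 0.177, 0.0660, 0.108 and 0.172), and *apolpp*, the main lipoprotein gene, was not called (log2 fold change -0.28 ± 0.19, adjusted p = 0.358).

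Markers of other tissues moved with several of these groups, and their part in the results was not tested. Of 10 hemocyte markers 5 were lower in prepupae (50%, against 8.69% of all genes) and none higher. Under either other scaling 4 were lower and 1 higher. All prepupal libraries lay below all late ones for 4 of them (17.9% of all genes) and above them for 2 (12.5% of all genes). Their summed level was 327 to 389 CPM in prepupal and 382 to 420 CPM in late libraries. The lower genes named next made up little of that sum, and *srp* of this list is also a fat body marker. The crystal cell gene *PPO1* had 3.92, 3.24 and 3.54 CPM in prepupal libraries, against 27.8, 15.01 and 11.4 CPM in late libraries (log2 fold change -2.33 ± 0.30, adjusted p = 2.55e-05). *PPO2*, also of crystal cells, had 5.78, 4.13 and 5.20 CPM in prepupal libraries, against 22.3, 21.8 and 15.5 CPM in late libraries (log2 fold change -1.97 ± 0.23, adjusted p = 7.84e-06). The clotting gene *Hml* had 12.3, 13.7 and 12.2 CPM in prepupal and 33.5, 44.7 and 32.4 CPM in late libraries (log2 fold change -1.53 ± 0.15, adjusted p = 1.06e-06) and the phagocytosis receptor gene *eater* had 3.65, 3.29 and 2.62 CPM in prepupal and 8.68, 9.18 and 9.57 CPM in late libraries (log2 fold change -1.52 ± 0.18, adjusted p = 7.75e-06), while *NimC1*, a plasmatocyte marker, was not called (log2 fold change -0.05 ± 0.17, adjusted p = 0.857). Of 15 muscle markers 4 were lower (26.7%, against 8.69% of all genes). Their summed level was 145 to 155 CPM in prepupal and 167 to 222 CPM in late libraries. None was lower without late replicate 2 or prepupal replicate 3, and 2 were without prepupal replicate 1 or 2 or under either other scaling. Of 8 tracheal markers 5 were higher (62.5%, against 3.64% of all genes), and 3 to 5 were higher in the omissions. Their summed level was 65.8 to 72.4 CPM in prepupal and 43.4 to 50.6 CPM in late libraries. *obst-A* had 3.95, 4.47 and 3.15 CPM in prepupal and 1.55, 1.52 and 1.43 CPM in late libraries (log2 fold change 1.35 ± 0.21, adjusted p = 1.46e-04). *verm* had 6.23, 5.35 and 6.06 CPM in prepupal and 2.90, 2.90 and 3.13 CPM in late libraries (log2 fold change 0.98 ± 0.20, adjusted p = 0.00243).

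Gut markers (267 to 316 CPM in prepupal and 368 to 401 CPM in late libraries) held 1 lower gene of 13 (7.69%, near the 8.69% of all genes), not called under either other scaling. The 5 ring gland markers, at 47.5 to 55.95 CPM in prepupal and 65.7 to 75.1 CPM in late libraries, held 1 lower gene (20%, against 8.69% of all genes). This was *sro* (log2 fold change -0.57 ± 0.14, adjusted p = 0.0104), an ecdysone synthesis gene not called without prepupal replicates 2 or 3 (adjusted p = 0.0618 and 0.0614). The median of the 5 ring gland markers was nonetheless 0.33, or 0.54 and 0.56 under the other scalings. Neuron and glia markers held 1 higher gene of 12 (8.33%, against 3.64% of all genes). This was *para* (log2 fold change 0.60 ± 0.16, adjusted p = 0.0162), not called without late replicate 2 or without prepupal replicates 2 or 3 (adjusted p = 0.0708, 0.115 and 0.0659). Under either other scaling 3 genes of that list were higher, *Syt1* among them (adjusted p = 0.00865 and 0.00243). The median of that list was 0.36, or 0.55 and 0.58 under those scalings. Imaginal disc markers held 1 lower gene of 12 (8.33%, near the 8.69% of all genes), *eya* (log2 fold change -1.04 ± 0.24, adjusted p = 0.00590), not called under either other scaling (adjusted p = 0.0585 and 0.0790). The median of the disc list was 0.47, or 0.67 and 0.70 under those scalings. All prepupal libraries lay above all late ones for 6 of the 12 markers (12.5% of all genes) and below them for 1 (17.9% of all genes). Summed levels were 593 to 669 CPM in prepupal and 556 to 579 CPM in late libraries for the neuron and glia list, and 105 to 110 CPM in prepupal and 99.3 to 108 CPM in late libraries for the disc list. None of 10 Malpighian tubule markers (51.7 to 61.3 CPM in prepupal and 48.9 to 51.4 CPM in late libraries) or 11 female gonad markers was called, with 1 gonad marker higher under either other scaling. Of the listed markers in the table, 11 of 22 for salivary gland, 88 of 124 for cuticle, 13 of 15 for gut and 5 of 9 for ring gland passed the filter on low counts. Of 88 cuticle and epidermis genes (1188 to 1387 CPM in prepupal and 1800.2 to 2206 CPM in late libraries) 1 was higher and 1 lower. Each was 1.14% of the list, against 3.64% and 8.69% of all genes. Without late replicate 1, 7 were higher and 3 lower. The higher one was *ple* (log2 fold change 1.89 ± 0.24, adjusted p = 2.26e-05). The lower one was *Cpr49Ac*, with 1122, 1176 and 997 CPM in prepupal and 1670.0, 2106 and 1967 CPM in late libraries (log2 fold change -0.80 ± 0.17, adjusted p = 0.00297). *Cpr49Ac* alone made up most of the summed level. The median of the cuticle list was 0.40, or 0.58 and 0.61 under the other scalings. All prepupal libraries lay above all late ones for 17 of its genes (12.5% of all genes) and below them for 4 (17.9% of all genes). Of the fat body markers themselves, 5 of 12 were lower (41.7%, against 8.69% of all genes), the *Lsp1* genes among them.

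Of the genes for long non-coding RNA (lncRNA), 24 of 822 (2.92%) were higher and 34 (4.14%) lower in prepupae, against 429 of 11621 (3.69%) and 1048 (9.02%) of protein-coding genes. The median log2 fold change was 0.21 over the lncRNA genes, called or not, and -0.01 over the protein-coding genes. The difference between the classes was not tested, and 54 or 51 lncRNA genes were higher and 23 lower under the other scalings. *CR44996* had 22.9, 15.9 and 16.1 CPM in prepupal libraries, against 9.94, 6.76 and 5.93 CPM in late libraries (log2 fold change 1.28 ± 0.19, adjusted p = 1.28e-04). *CR44748* had 11.2, 9.82 and 10.3 CPM in prepupal libraries, against 3.20, 3.98 and 5.93 CPM in late libraries (log2 fold change 1.26 ± 0.27, adjusted p = 0.00313), both after rises of 3.29 and 4.05 over the preceding interval. *CR44095* rose by 1.06 ± 0.19, whereas the call of *CR45325* (1.10) was lost without late replicate 2 or without prepupal replicates 2 or 3 (adjusted p = 0.0923, 0.0862 and 0.0698) and that of *CR45683* (1.05) without late replicates 2 or 3 or without prepupal replicates 2 or 3 (adjusted p = 0.0720, 0.0667, 0.0710 and 0.0923). *CR44179* had 12.8, 11.6 and 12.1 CPM in prepupal libraries, against 26.3, 36.3 and 31.6 CPM in late libraries, the fall of a lncRNA gene with the most reads among the 5 largest (log2 fold change -1.37 ± 0.18, adjusted p = 2.61e-05). *CR46129*, *CR46074*, *CR43174* and *CR45955* changed by -2.15, -1.91, -1.71 and -1.34, all stable, at levels that for *CR46129* were 11, 9 and 14 reads in prepupal libraries, against 39, 58 and 59 reads in late libraries.

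To ask whether the change was particular to the Zambian population, it was set against that between Dutch prepupae and late larvae, which shares no library with it. In the Dutch population 1885 genes (15.1%) were called, 957 higher (7.68%) and 928 lower (7.45%) in prepupae. Both populations called 861 genes in the same direction, which is 56.1% of the Zambian and 45.7% of the Dutch calls, made up of 270 higher and 591 lower genes. Of the 1536 Zambian calls, 1389 had the same sign in the Dutch population, and 4 were called there in the opposite direction, *CG14301* and *CG12239* (higher in Zambian prepupae, both near 1 CPM) and *CHKov1* and *mnb* (lower). *mnb*, a kinase gene, had a log2 fold change of -0.44 ± 0.14 in the Zambian and 0.54 ± 0.14 in the Dutch population, and *CHKov1* of -0.64 ± 0.19 and 0.59 ± 0.18. Their Zambian calls were lost, for *mnb* without late replicates 2 or 3 or without prepupal replicates 2 or 3 (adjusted p = 0.153, 0.118, 0.171 and 0.179) or under either other scaling (0.218 and 0.291) and for *CHKov1* without late replicate 2 or without prepupal replicates 2 or 3 (adjusted p = 0.194, 0.159 and 0.116) or under either other scaling (0.0653 and 0.0808).

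When the difference between the changes was tested itself, edgeR called 0 genes, with a smallest adjusted p of 0.134 and 2309 genes (18.5%) at an unadjusted p under 0.05, whereas DESeq2 called 178 (1.43%), of which 173 had the lower change in the Zambian population. The other 5 were *Ugt35C1*, *Cyp6w1*, *Acsf2*, *CG9512* and *Rab3-GEF*, singled out after their values were seen. *Cyp6w1*, a P450 gene, changed by -1.11 ± 0.25 in the Zambian and -2.74 ± 0.26 in the Dutch population (difference 1.62 ± 0.35, adjusted p = 0.134 by edgeR and 0.00581 by DESeq2). *PPO1* went the other way, at -2.33 ± 0.30 in the Zambian and -0.83 ± 0.27 in the Dutch population (difference -1.50 ± 0.40, adjusted p = 0.147 by edgeR and 0.0219 by DESeq2). *Cyp310a1*, with -0.24 ± 0.13 and 0.74 ± 0.13, was the gene that edgeR called with upper-quartile factors (adjusted p = 0.0346) or without Dutch late replicate 1 (0.0347).

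For the leading genes the changes in the populations stood side by side as follows. *dmGlut* rose by 3.48 ± 0.31 in the Zambian and 3.31 ± 0.31 in the Dutch population, *CG5697* by 2.90 ± 0.19 and 3.10 ± 0.19, and *Eip93F* by 2.28 ± 0.20 and 2.13 ± 0.19. *Eaat1* changed by -2.43 ± 0.22 and -2.15 ± 0.21, and *Lsp1gamma* by -1.77 ± 0.29 and -1.92 ± 0.29. The P450 list had 2 higher and 35 lower genes in the Zambian and 2 higher and 38 lower genes in the Dutch population, and glycolysis 3 higher and none lower against 3 higher and 3 lower. Proteasome genes were not called in the Zambian population (median 0.09) and 20 of 38 were called higher in the Dutch one (median 0.41) under TMM scaling. Under the other scalings 28 or 31 of them were called higher in the Zambian population as well (median 0.30 or 0.33), and none of them differed between the populations in the test of edgeR.

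**Figure D5:**
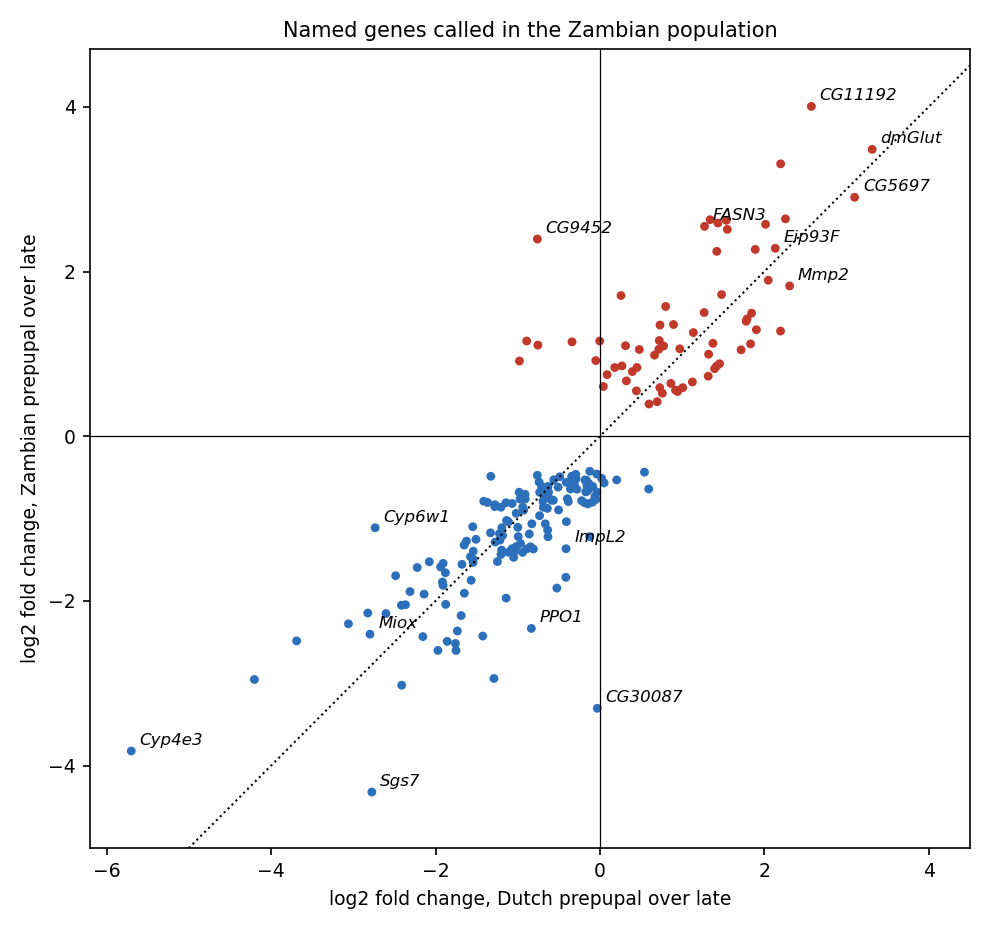
Log2 fold change, prepupal over late, in the Zambian (y axis) against the Dutch population (x axis) for the 221 genes named by rule or in the text that were called in the Zambian population, red for higher and blue for lower. Points on the dotted line changed equally, as *dmGlut* nearly did at 3.48 and 3.31, while *CG30087* had -3.31 in the Zambian and -0.03 in the Dutch population and *Cyp4e3* had -3.82 in the Zambian and -5.70 in the Dutch population.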

How the data were processed

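RNA from dissected female fat bodies was depleted of ribosomal RNA and sequenced in 18 libraries. The authors mapped read pairs to the release 6 FlyBase transcriptome with NextGenMap, discarded ambiguous pairs, and deposited raw read counts per gene. Whether strand was used in counting is not given in the sources used here, so overlapping antisense genes, and near-identical copies within families such as histones, *Lsp1* and P450 genes, may share reads. The table also gives gene lengths.

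Genes with a mean of at least 15 reads over the 18 libraries were kept (12460 of 16438). TMM-scaled counts were tested in edgeR 4.0.16 (R 4.3.3) by quasi-likelihood, in a model with 1 factor of 6 levels for the combinations of population and stage. Benjamini-Hochberg adjustment ran over all genes tested, and genes with an adjusted p under 0.05 were called. Log2 fold changes are prepupal over late, and errors are standard errors unless marked SD. Alternatives were DESeq2 1.42.0, other size factors and filters, a replicate block, a fit of the compared libraries alone, and omission of each library. Identical or duplicate libraries were not found among the Zambian late or among the Zambian prepupal libraries, the only pairs compared for this. Figures were drawn with matplotlib 3.10.9.

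Named genes were the 12 with the largest change in each direction among called genes without overlap and with a mean of at least 1 CPM, up to 4 called members and the member with the most reads of each list, the 5 lncRNA genes with the largest change in each direction, the 10 genes highest in TPM, and genes called for the population difference. Further genes, and the lists of the closing section, were chosen after their values were seen. The comparison, its 38 gene lists and 12 marker lists were chosen with earlier results of these data known. Names came from the gene identifier for 16343 genes and from the CG or CR number for 88.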

Additional observations from a re-analysis of the deposited data

How the results depend on the processing

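The 1536 calls numbered 794 to 2013 when 1 Zambian library was left out, with 240 to 659 higher and 554 to 1354 lower in prepupae. Higher calls numbered 1034 with upper-quartile factors and 1081 with TMM factors from well-expressed genes, and lower calls 703 with the second. DESeq2 size factors, no filter, a minimum mean of 100 reads, the DESeq2 test and a fit of the compared libraries alone kept the counts of Zambian calls within a ratio of 1.5. For the difference between populations, edgeR called 1 gene with upper-quartile factors, 1 with the minimum of 100 reads, 0 to 17 with a library left out (17 without Dutch late replicate 3), and DESeq2 called 178. Of 221 named genes called, none changed sign in any setting, and 77 lost the call without late replicate 2, 66 without prepupal replicate 3, 63 without prepupal replicate 2 and 41 without late replicate 3. List counts under each scaling and omission were added after seeing the data.

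Same-numbered late and prepupal libraries deviated with correlations of -0.31, -0.12 and 0.12, so the numbers were not treated as pairs. With the replicate block, 1470 genes were called, 419 higher and 1051 lower, and 11 of the 221 genes lost the call. The 3 libraries per stage pooled the same strains, so variation among strains stayed unmeasured, and low counts limited genes near 1 CPM.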

Other observations

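The lists in this section were put together after the values were seen, and their counts describe the data without a test. The secretory route held falls only. Of 24 genes for entry into the endoplasmic reticulum and for assembly of N-glycans 14 (58.3%) were lower in prepupae, and of 13 vesicle coat genes 9 (69.2%) were, against 8.69% of all genes, with medians of -0.46 and -0.48 against -0.002 over all genes. The numbers were 9 under either other scaling for the first list, and 6 or 5 for the second. Without late replicate 2 they were 3 and 3, without prepupal replicate 2 they were 6 and 2, without prepupal replicate 3 they were 3 and 2, and without late replicate 3 the second was 4. The summed levels were 726 to 869 CPM in prepupal and 1179 to 1796 CPM in late libraries for the first list, and 669 to 775 CPM in prepupal and 915 to 1055 CPM in late libraries for the second.

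Enzymes of catecholamines and tanning, which colour and harden the cuticle, held 4 higher genes of 9 (44.4%, against 3.64% of all genes) and none lower. These numbers were the same in each fit run. *ple*, the tyrosine hydroxylase gene, had 113, 116 and 79.5 CPM in prepupal libraries, against 36.5, 28.2 and 18.2 CPM in late libraries (log2 fold change 1.89 ± 0.24, adjusted p = 2.26e-05), *e*, which makes beta-alanyl dopamine, had 58.9, 62.6 and 48.7 CPM in prepupal libraries, against 14.95, 11.4 and 8.91 CPM in late libraries (log2 fold change 2.27 ± 0.22, adjusted p = 1.17e-06), and *b*, which makes beta-alanine, had 8.15, 7.91 and 7.35 CPM in prepupal libraries, against 3.52, 2.01 and 2.68 CPM in late libraries (log2 fold change 1.50 ± 0.20, adjusted p = 4.64e-05). The 3 clotting genes, *fon*, *Tig* and *Hml*, were all lower. *Hml* is also a hemocyte marker, and 5 of the 10 hemocyte markers were lower. Their part in the fall of the clotting genes was not tested. *fon*, with the most reads, had 1551, 1348 and 1342 CPM in prepupal libraries, against 2990.3, 5338 and 4145 CPM in late libraries (log2 fold change -1.56 ± 0.24, adjusted p = 1.72e-04), and *Tig* had 546, 482 and 411 CPM in prepupal libraries, against 1008, 1528 and 1114 CPM in late libraries (log2 fold change -1.34 ± 0.20, adjusted p = 1.27e-04). *Miox*, the inositol oxygenase gene, had 69.1, 60.4 and 71.8 CPM in prepupal libraries, against 188, 478 and 400.1 CPM in late libraries (log2 fold change -2.40 ± 0.31, adjusted p = 2.58e-05). It was listed with *Agxt*, *Gnmt* and *Sardh*, genes of one-carbon and glyoxylate metabolism already counted under amino acid breakdown, and all 4 fell. *Miox* acts on inositol and does not belong to that metabolism. The shares of all genes beside the next counts are 3.64% higher and 8.69% lower. Of 8 genes for glutamate handling 1 was higher (12.5%) and 4 lower (50%), or 2 lower without late replicate 2. Of 19 serpin genes 3 were higher (15.8%) and 6 lower (31.6%). The serpin counts were 3 lower under either other scaling, 2 higher and 2 lower without late replicate 2, and 2 higher and 3 lower without prepupal replicate 2 or 3. Of 19 neprilysin-like protease genes 3 were higher (15.8%) and 7 lower (36.8%), or 2 higher without late replicate 2 or prepupal replicate 2.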
